A study of Mus musculus with 8 samples.

Results

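Neural tube that had just closed was compared with neural tube still open in embryos of diabetic dams. The libraries were chosen by their titles, which give dam, region and number: closed libraries 15 and 16 and open libraries 13 and 14, which are 4 of the 8 libraries of the series. All embryos were of the FVB strain at day 8.5 of gestation, and no allele or treatment other than the dams' diabetes is named. The tissue was cut by laser from frozen sections directly in front of the anterior edge of closure site 1 (open) or directly behind it (closed), and 7 ng of total RNA went into each SOLiD SAGE library. The other 4 libraries are the same regions from normal dams, closed 11 and 12 and open 09 and 10, and they serve as a reference. How the dams became diabetic, the number of embryos or litters in a library, and whether 1 embryo gave tissue to both regions are not stated in the labels. Every p-value therefore measures only the spread between these libraries, which may be technical. Open tissue also lies further forward than closed tissue, so that state of closure and axial level cannot be told apart.

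In the mouse the neural plate bends, its folds rise and the tips meet first at closure site 1, at the border of hindbrain and neck, from where fusion runs in both directions. The tips carry dorsal neural cells, which later give neural crest, and the surface ectoderm that seals over them, while mesoderm, vessels and gut lie close by in the same section. Maternal diabetes is a known risk factor for neural tube defects, and Pax3, the transcription factor mutated in the Splotch mouse, is a well-studied gene in that setting.

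SAGE counts 1 tag for each transcript, read from the CATG site nearest its 3′ end. The tags of 6 genes on which the results turn are shown so that the counted part of each transcript can be seen: CATG is in capitals, and each runs 5′ to 3′ on the transcript. They are the last CATG and the bases after it, 27 bases in all, in the longest coding or, for Meg3, noncoding GENCODE M21 transcript, while the counts were summed per gene by the authors.
Pdcd6: CATGtgccttactttttaaaaaaaatt
Foxj1: CATGtaaagttctttacaataaaatgt
Msx1: CATGctggtgcttcaccaaggtaggtt
Piwil2: CATGgcttttggagtctatgaccaagg
Meg3: CATGgtgctttcaataaatttcttgtt
Hba-x: CATGaccagctatgatccctctcctcc

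On GRCm38, a later build than the mm9 of the counts, the Pdcd6 tag lies at chr13:74303557-74303583 on the minus strand, in the 3′ UTR in exon 6 of 6. The Foxj1 tag lies at chr11:116330734-116330760 (minus strand, 3′ UTR, exon 3 of 3) and the Msx1 tag at chr5:37820703-37820729 (minus strand, 3′ UTR, exon 2 of 2). The Piwil2 tag is at chr14:70372754-70372780 (minus strand, 3′ UTR, exon 23 of 23). The Meg3 tag is at chr12:109571691-109571717 (plus strand, exon 5 of 5 of a noncoding RNA), and the Hba-x tag at chr11:32278028-32278054 (plus strand, 3′ UTR, exon 3 of 3). None of the 6 tags follows a CATG in a transcript of another gene. Of 109 genes looked up in this way, a tag was kept for 106, with tags on a single chromosome left out. In 104 of these it occurred in no other gene's transcripts. The exceptions were Igf2, whose tag is also in Gm49394, and Krt18, whose tag is also in Gm5200. Genes can have other tags at other transcript ends: Pdcd6 has 4 over its 5 transcripts and Meg3 has 7 over 11.

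The libraries differed in depth and likeness. Totals were 5041586 and 7167172 counts in closed libraries 15 and 16 and 16655583 and 8376378 in open libraries 13 and 14. Across genes, log2 levels correlated at 0.910 between the closed libraries and at 0.776 between the open ones. Of the 11779 genes tested, 5.24% and 3.34% had no count in the closed libraries and 9.25% and 18.4% in the open ones. Of genes with at least 50 counts in open library 13, 10.5% had none in library 14, against 2.63% the other way round. Open library 13 stood apart in neural and mesodermal genes. Sox2, a transcription factor of neural progenitors, was at 30.2 CPM (counts scaled for depth and composition) there and at 306, 528 and 411 CPM in libraries 15, 16 and 14. Open library 14 had the most Crabp1, a retinoic acid binding protein gene, at 16617 CPM, against 1283, 4885 and 1107 CPM in libraries 15, 16 and 13. Tubb5, a tubulin gene among the 10 most abundant, was at 13344, 13499.6, 12432 and 11232 CPM in libraries 15, 16, 13 and 14. In what follows, a pair of values is in the order 15 and 16 for closed and 13 and 14 for open tissue, and 11 and 12 and then 09 and 10 for normal dams. The Y-linked gene Ddx3y was at 192 and 195 CPM in closed and 262 and 252 CPM in open tissue. In normal dams it was at 279 and 0.456 CPM in closed and 204 and 0.849 CPM in open tissue. Y-linked Uty had the same shape, so that normal libraries 12 and 10 differed from the diabetic ones in sex-linked transcripts.

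The genes with the smallest p-values that stood higher in closed tissue had low levels in open tissue of diabetic dams, and most were not low in normal dams. Pdcd6, a calcium-binding protein of vesicle transport, stood at 333 and 475 CPM in closed and at 4.06 and 28.4 CPM in open tissue. In normal dams it was at 399.6 and 339.5 CPM in closed and 528 and 484 CPM in open tissue, so that only the open libraries of diabetic dams were low among the 8. The log2 fold change (closed minus open) in diabetic dams was 4.66 (SE 0.74), or 3.83 without open library 13 and 6.63 without open library 14. The adjusted p over all genes was 0.331 by the main test, edgeR's quasi-likelihood F test with Benjamini-Hochberg adjustment, and 4.98e-11 by DESeq2.

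By the main test 0 of 11779 genes passed an adjusted p of 0.05 (0% of genes tested), and 327 had an unadjusted p below 0.05. DESeq2 called 47 of the 9952 genes to which it gave an adjusted p (0.472%), 43 higher in closed and 4 higher in open tissue, and limma-voom called 1. Without a main call, the genes below are given as values. The median standard error of a log2 fold change was 0.96, so that most changes of 1 on that scale were not detectable at this number of libraries. Beside the test, genes were counted whose groups did not overlap. Both closed libraries were above both open ones in 2368 genes (20.1% of genes tested), and both open above both closed in 1618 (13.7%). A gap of at least 2 times between the groups was found in 717 genes with the closed libraries higher (6.09%) and in 217 with the open libraries higher (1.84%). These percentages are the background against which the counts of members are set.

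**Figure D1:**
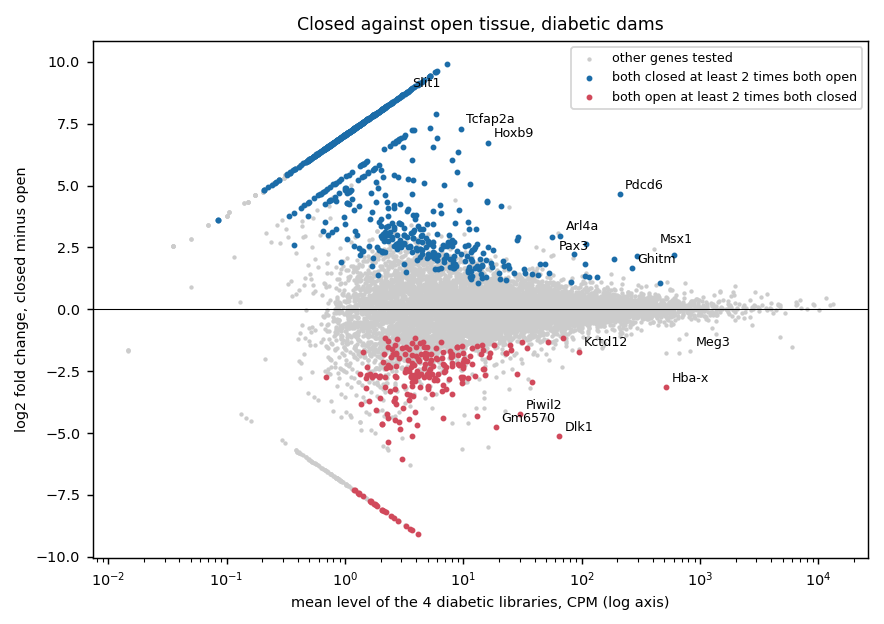
Log2 fold change, closed minus open, against the mean level of the 4 diabetic libraries (CPM, log axis) for 11779 genes; colours mark the 717 and 217 genes with a gap of at least 2 times. The straight edges at the left are genes with no count in one group, whose fitted values are not bounds; Pdcd6 stands far above genes of like level, and Dlk1 and Hba-x far below.

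Arl4a, a small GTPase of the ARF family, stood at 127 and 107 CPM in closed and 17.8 and 11.6 CPM in open tissue (2.98 as log2 fold change, SE 0.47). Its level in normal dams was 96.3 and 77.2 CPM in closed and 42.4 and 89.2 CPM in open tissue, above both diabetic open libraries throughout. Ghitm, which codes for a protein of the mitochondrial inner membrane, was at 369 and 433 CPM in closed and at 119 and 136 CPM in open tissue (1.65, SE 0.29). The open libraries were close to each other in Ghitm, and the 4 libraries of normal dams lay between 316 and 509 CPM.

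Cct7, a subunit of the cytosolic chaperonin, was at 305 and 293 CPM in closed and 50.6 and 97.4 CPM in open tissue. Ubqln4, a ubiquilin, stood at 71.8 and 127 CPM against 7.24 and 19.4 CPM, and Peli2, a ubiquitin ligase of the Pellino family, at 58.3 and 41.5 CPM against 5.94 and 8.22 CPM. For these 3 genes the log2 fold changes were 2.02 (SE 0.39), 2.91 (SE 0.57) and 2.82 (SE 0.52). LOC100505012, known only by this name, was at 36.5 and 42.1 CPM in closed and 2.88 and 1.41 CPM in open tissue, and it was also lower in open than in closed tissue of normal dams (36.7 and 45.4 against 10.8 and 8.15 CPM).

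Foxj1, the transcription factor that switches on motile cilium genes, was at 6.26 and 17.6 CPM in closed tissue, with no count in either open library. All 4 libraries of normal dams had it, at 12.9 to 43.8 CPM. Taking 3 counts over the open group as the limit of a count of 0, Foxj1 was at least 101-fold higher in closed tissue, a bound that covers counting error only. Slit1, a secreted guidance ligand, was at 4.64 and 8.67 CPM in closed tissue and at 0 in open tissue (at least 56.6-fold higher in closed), while normal dams had 12.9 and 15.7 CPM in closed and 26 and 30.6 CPM in open tissue. Cln8, a membrane protein of the endoplasmic reticulum, was at 19.2 and 10.1 CPM against 0 and 0 (at least 124-fold), and Ltbp3, which holds latent TGF beta in the matrix, at 8.68 and 11.7 CPM against 0 and 0 (at least 86.8-fold). Both were found in all 4 libraries of normal dams, Cln8 at 6.29 to 11.8 CPM and Ltbp3 at 10.3 to 14.3 CPM. In all, 383 of the 11779 tested genes were at 0 in both open libraries with counts in both closed ones, and 24 showed the reverse. Others among them were Eda, a ligand of the TNF family (12.1 and 8.81 CPM, at least 88.9-fold), Rnf113a1 (10.3 and 7.55 CPM, at least 75.9-fold) and Rnls (8.68 and 8.11 CPM, at least 71.4-fold). On the other side were Car8 (0 and 0 against 8.71 and 5.99 CPM, at least 29.7-fold higher in open) and Arl14 (0 and 0 against 4.06 and 4.23 CPM, at least 16.7-fold). In normal open tissue Eda was at 0 and 14.1 CPM, Rnf113a1 at 9.35 and 0 CPM and Rnls at 2.41 and 0 CPM. A value of 0 thus also occurred beside counts within a group, and the bounds do not cover spread between libraries. Of all genes tested, libraries 13 and 14 lacked 9.25% and 18.4%, against 5.24% and 3.34% for libraries 15 and 16. The counts of 383 and 24 were not set against these unequal rates, and they are not read as a loss in open tissue. The part of missing tags in library 14 in these counts was not tested.

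**Figure D2:**
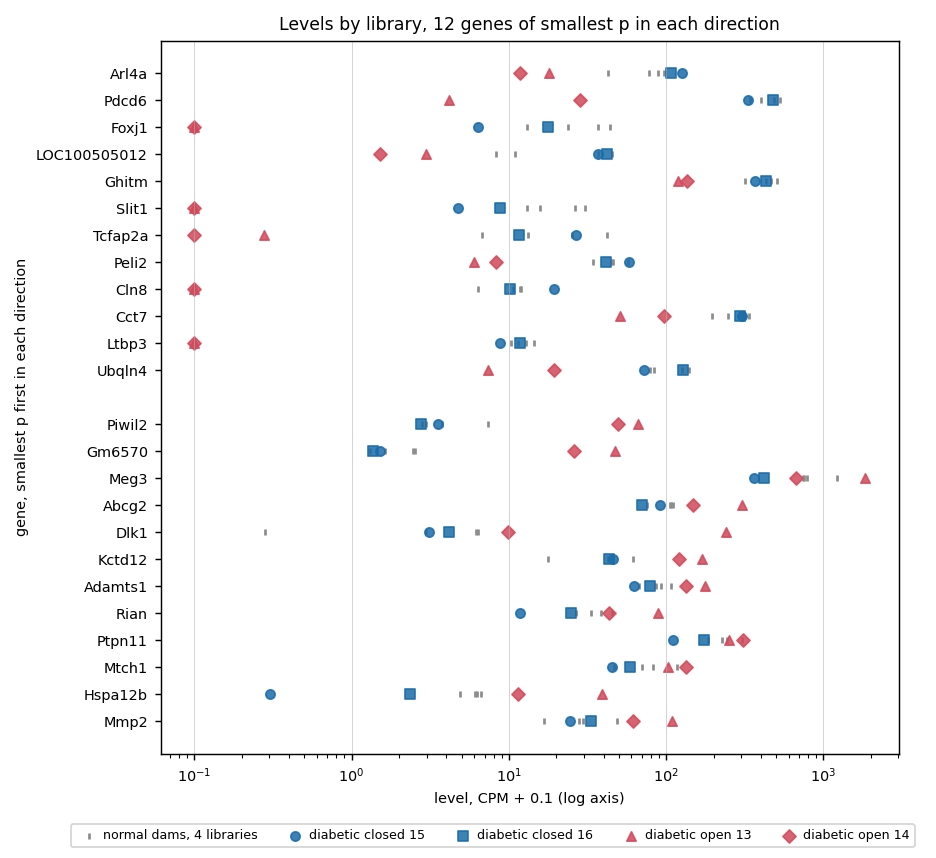
Level (CPM + 0.1, log axis) of the 12 genes with the smallest p in each direction (mean of at least 10 counts), one row per gene, with a mark for each diabetic library and grey ticks for the 4 libraries of normal dams. In the upper rows the open libraries lie to the left of the closed ones and mostly of the grey ticks; in the lower rows they lie to the right.

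Among genes higher in open tissue, Piwil2, of the PIWI family that binds small RNAs in the germ line, was at 3.43 and 2.66 CPM in closed and 65.7 and 49 CPM in open tissue (-4.23 as log2 fold change, SE 0.82). Normal dams had 2.71 to 7.27 CPM, so that Piwil2 was high only in the 2 open libraries of diabetic dams among the 8. Gm6570, known only by this symbol, had the same shape, at 1.41 and 1.26 CPM against 47 and 25.8 CPM, with 1.22 to 2.41 CPM in normal dams. Kctd12, an auxiliary subunit of GABA-B receptors, was at 45.6 and 42.9 CPM in closed and 169 and 121 CPM in open tissue (-1.71, SE 0.49). Abcg2, an efflux pump, was at 91.2 and 69.8 CPM against 301 and 147 CPM. DESeq2 called Piwil2 (adjusted p = 0.000197) and Gm6570 (0.00228), and not Kctd12 (0.137) or Abcg2 (0.0881).

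Adamts1, a secreted protease, stood at 62.6 and 79.3 CPM in closed and 177 and 133 CPM in open tissue, and the gelatinase Mmp2 at 24.2 and 33.4 CPM against 109 and 61.3 CPM. Ptpn11, the phosphatase SHP2 of receptor signalling, was at 111 and 174 CPM against 251 and 309 CPM, and Mtch1, of the outer mitochondrial membrane, at 45.4 and 59.1 CPM against 103 and 134 CPM. In normal dams Ptpn11 was at 228 and 183 CPM in closed and 245 and 305 CPM in open tissue, so that its lowest libraries were the closed ones of diabetic dams. Hspa12b, an Hsp70 relative known from endothelium, was at 0.202 and 2.24 CPM in closed and 38.8 and 11.4 CPM in open tissue.

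In the list for dorsal neural tube and crest, which included Msx1, Sox9, Tcfap2a and Pax3, 13 of 24 tested members had both closed libraries above both open ones (background 20.1%) and 1 the reverse (background 13.7%). The reverse order was that of Pax7, with no count in closed tissue. Its mean in open tissue was 3.73 CPM, with 0.0588 CPM in the lower library. The median log2 fold change of the list was 1.30, or 1.49 without open library 13, where the median of all genes was 0.03, or 0.18 without that library. The summed level of the list did not separate the groups, at 2971 and 5904 CPM in closed and 1509 and 17044 CPM in open tissue, and its most abundant member Crabp1 (1283 and 4885 against 1107 and 16617 CPM) was highest in open library 14. Msx1, a homeobox factor of the dorsal midline and a target of BMP signals, was at 1032 and 353 CPM in closed and 186 and 66.6 CPM in open tissue (2.45 as log2 fold change, SE 0.61). Sox9, a factor of neural crest specification, stood at 77.1 and 75.2 CPM against 17.6 and 24.7 CPM (1.85, SE 0.45). The groups did not overlap in either gene. In bulk tissue, fewer cells of a type and less RNA per cell cannot be told apart, and this holds for every marker given here.

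Tcfap2a, an AP-2 factor of neural crest and surface ectoderm whose mouse mutants fail to close the cranial folds, was at 26.6 and 11.5 CPM in closed tissue. It had 0.177 CPM (3 counts) in open library 13 and no count in open library 14. In normal dams Tcfap2a was at 41.8 and 24.9 CPM in closed and 13.2 and 6.62 CPM in open tissue. Olig3, a factor of dorsal progenitors, was at 15.9 and 5.03 CPM in closed tissue and at 0 in both open libraries (at least 89.2-fold higher in closed), and Wnt3a, a dorsal midline and tail bud ligand, at 3.63 and 1.12 CPM against 0 and 0 (at least 20.2-fold). Normal open libraries had 4.42 and 0 CPM of Olig3. Pax3 stood at 139 and 50.6 CPM in closed and 7.59 and 34.2 CPM in open tissue, and its groups did not overlap (2.19, SE 0.72). The fold change of Pax3 was 1.47 without open library 13 and 3.64 without open library 14. Normal dams had 76.5 and 101 CPM of Pax3 in closed and 57.6 and 108 CPM in open tissue, which overlap. DESeq2 called Msx1 (adjusted p = 0.00323), Tcfap2a (3.41e-05) and Olig3 (0.0298) of this list, and not Pax3 (0.234) or Sox9 (0.0881).

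The surface ectoderm and epithelium list had 6 of 15 tested members higher in both closed libraries (background 20.1%) and 0 the other way (background 13.7%). Its median log2 fold change was 0.71, or 4.52 without open library 13, so that the size of this median depended on that library. Cdh1, the E-cadherin of epithelia, was at 121 and 44.2 CPM in closed and 42.5 and 19.7 CPM in open tissue, and Cldn3, a tight junction claudin, at 35.5 and 8.53 CPM against 0.353 and 0.94 CPM. The epithelial factors Ovol2 (1.61 and 3.92 CPM) and Dlx3 (2.42 and 2.1 CPM) had no count in open tissue, at least 23.5-fold and 19.2-fold higher in closed. The keratin gene Krt18 did not follow, at 65.4 and 13.6 CPM in closed and 193 and 26.5 CPM in open tissue. Grhl3, a factor needed for closure of the caudal neural tube, was at 3.63 and 6.15 CPM against 3.94 and 5.76 CPM; its log2 fold change of 0.02 (SE 1.48) was negative under 6 of the other settings. The summed level of the list was 394 and 152 CPM in closed and 363 and 83.5 CPM in open tissue, so that its sum did not separate the groups.

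Among neural progenitor genes the median fold change rested on open library 13. Of 21 tested, 7 had both closed libraries above both open ones (33.3%, background 20.1%) and 1 the reverse (4.76%, background 13.7%). The median log2 fold change of 0.61 was -0.01 without open library 13. Hes5, a Notch target of neural progenitors, was at 153 and 155 CPM in closed and 13.6 and 156 CPM in open tissue, and Fgf15, a growth factor of neural plate, at 269.8 and 289.9 CPM against 37.8 and 383 CPM. In both genes, as in Sox2, open library 13 was low and open library 14 was not. Fgf15 belongs to the list of fore-, mid- and hindbrain identity, where 0 of 6 tested members had either order (backgrounds 20.1% and 13.7%). The median log2 fold change of that list was -0.74, or -0.33 without open library 13. Its 24 genes summed to 532 and 507 CPM in closed and 782 and 748 CPM in open tissue. Sox3, another early neural factor, was at 8.27 and 10.8 CPM against 1.24 and 2 CPM, without overlap. Elavl4, a neuronal RNA-binding protein gene, was at 9.69 and 13.6 CPM in closed and at 0 in open tissue (at least 98.8-fold higher in closed). Of 14 tested genes of neuronal differentiation, 4 had both closed libraries higher (28.6%, background 20.1%). In 1 (7.14%, background 13.7%), Gadd45g, both open libraries were higher (0.807 and 1.26 against 9.77 and 8.46 CPM). Neurod4 was at 2.22 and 3.22 CPM in closed and 0 and 0.117 CPM in open tissue, and the neuronal tubulin gene Tubb3 overlapped, at 14.3 and 13.4 CPM against 0.118 and 16.9 CPM.

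Among genes of the ventral neural tube and Hedgehog signalling, 5 of 15 tested had both closed libraries higher (33.3%, background 20.1%) and 0 the reverse (background 13.7%). Gli1, a transcriptional readout of Hedgehog signals, was at 341 and 385 CPM in closed and 231 and 193 CPM in open tissue. The node, notochord and cilia list had 6 of 14 tested members higher in both closed libraries (42.9%, background 20.1%) and 2 in both open ones (14.3%, background 13.7%). Besides Foxj1 and Sox9, it held Nog, an antagonist of BMPs made by the notochord and dorsal midline, at 17.6 and 8.95 CPM against 4.18 and 3.17 CPM. Car3, a carbonic anhydrase, was at 2.42 and 7.55 CPM against 0.471 and 0 CPM.

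Genes of the caudal end and axial progenitors had 5 of 14 tested members higher in both closed libraries (35.7%, background 20.1%). In 1 both open libraries were higher (7.14%, background 13.7%), and the median log2 fold change was 0.99. Fgfbp3, which releases FGFs from the matrix, was at 171 and 115 CPM in closed and 44.1 and 16.6 CPM in open tissue (2.23 as log2 fold change, SE 0.55). Greb1 stood at 43 and 31.6 CPM against 6.94 and 14.6 CPM (1.80, SE 0.53). Cdx2, a caudal homeobox factor, overlapped, at 9.28 and 1.68 CPM against 4.24 and 0.587 CPM. The 27 listed genes of Hox groups 5 to 13, of which 6 were tested, summed to 146 and 23.4 CPM in closed and 113 and 12.7 CPM in open tissue. In these sums 1 library of each group was high. Hoxb9, a posterior gene, was at 63 CPM in closed library 15 and at 1.68 CPM in closed library 16, with 0.235 and 0.352 CPM in open tissue and at most 0.849 CPM in normal dams. Hoxb8 had the same shape, at 33.5 and 0.979 CPM in closed and 0.353 and 0.352 CPM in open tissue. Without closed library 15 neither gene had more than 2 CPM in any diabetic library. Of 10 tested genes of Hox groups 1 to 4, which mark more anterior levels, 2 had each order (20% each, backgrounds 20.1% and 13.7%). Among them Hoxa2 overlapped, at 175 and 156 CPM in closed against 149 and 258 CPM in open tissue.

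**Figure D3:**
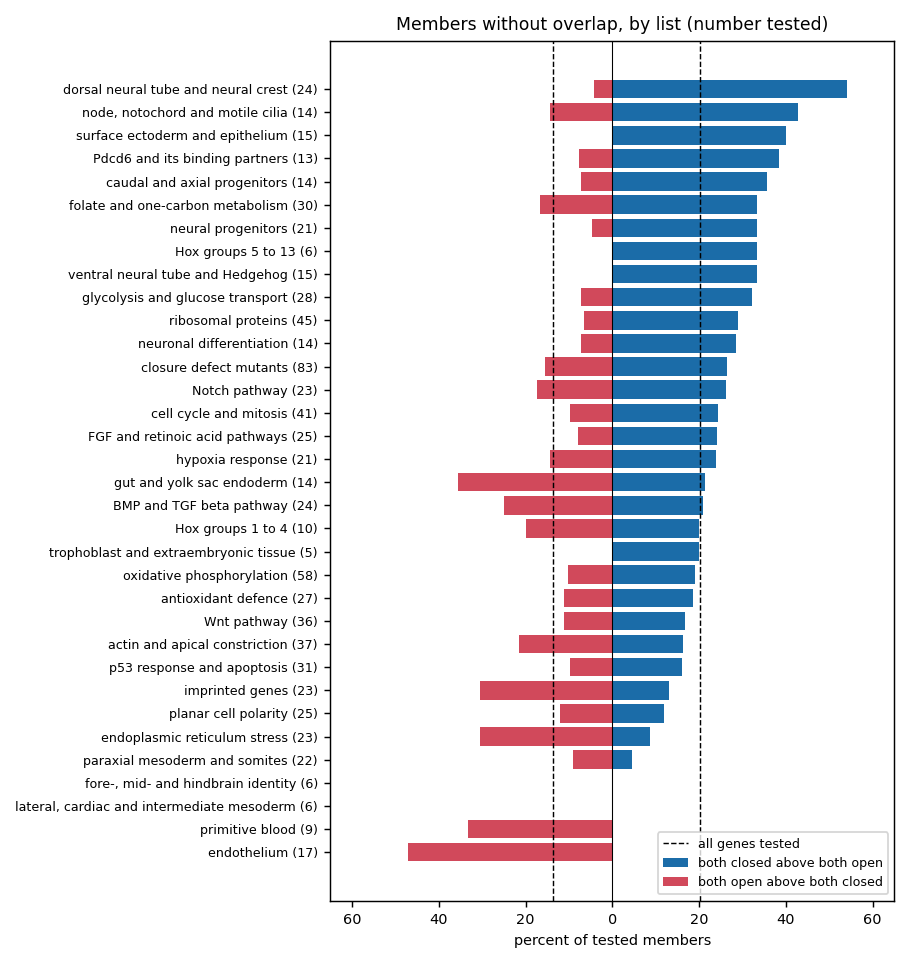
Percent of tested members of each list with both closed libraries above both open ones (right) and with both open above both closed (left); dashed lines are the shares of all genes tested, 20.1% and 13.7%. Dorsal neural tube and neural crest reaches furthest to the right (13 of 24) and endothelium furthest to the left (8 of 17).

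Among 23 tested imprinted genes, 7 had both open libraries higher (background 13.7%) and 3 both closed ones (background 20.1%), and the median log2 fold change was -1.12, or 0.04 without open library 13. Members of the cluster on chromosome 12 had 1 order. Its maternally expressed noncoding RNAs were Meg3, at 359.6 and 416 CPM in closed and 1844 and 673 CPM in open tissue, Rian, at 11.7 and 24.6 CPM against 88.1 and 43.5 CPM, and Mirg, at 2.83 and 5.31 CPM against 15.7 and 9.28 CPM. Dlk1, its paternally expressed gene for a membrane protein related to Notch ligands, was at 3.03 and 4.06 CPM in closed and 241 and 9.75 CPM in open tissue. The groups did not overlap in any of these 4 genes, and library 13 was the highest in each. The log2 fold changes of Meg3, Rian and Dlk1 were -1.70 (SE 0.43), -1.85 (SE 0.57) and -5.14 (SE 1.40), and without open library 13 they were -0.80, -1.25 and -1.46. In normal dams Meg3 was at 741 and 791 CPM in closed and 754 and 1221 CPM in open tissue, so that the diabetic closed libraries had the lowest Meg3 of the 8.

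At other imprinted loci the order was set by open library 13. Igf2, a fetal growth factor, was at 253 and 354 CPM in closed and 1874 and 198 CPM in open tissue, and H19, the noncoding RNA beside it, at 524 and 499 CPM against 1731 and 296 CPM. Mest was at 3970.4 and 2053 CPM against 10192 and 2931 CPM, and Peg3 at 9.69 and 5.17 CPM against 132 and 0.117 CPM. Without library 13 the log2 fold changes of Igf2, H19, Mest and Peg3 were all positive. Cdkn1c, a cell cycle inhibitor, did not depend on it, at 5.85 and 9.51 CPM in closed and 21.4 and 20.3 CPM in open tissue. Dcn, a matrix proteoglycan gene, had no count in closed tissue or in normal dams and was at 6.3 and 7.87 CPM in the open libraries (at least 28.6-fold higher in open).

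Among genes of vessels and blood, every tested member without overlap stood higher in open tissue. Of 17 tested endothelial genes, 8 had both open libraries higher (background 13.7%) and 0 both closed ones (background 20.1%), with a median log2 fold change of -1.34, or -0.43 without open library 13. Tek, the receptor TIE2 of endothelium, was at 3.43 and 14.1 CPM in closed and 104 and 29.6 CPM in open tissue, and Egfl7, which endothelium secretes, at 47.8 and 56.2 CPM against 140.1 and 87.6 CPM. The summed level of the list was 108 and 195 CPM in closed and 636 and 191 CPM in open tissue, so that by its sum open library 14 was below closed library 16. Of 9 tested genes of primitive blood, 3 had both open libraries higher (33.3%, background 13.7%) and 0 both closed ones (background 20.1%). They were the embryonic globin genes Hba-x (4.44 and 204 against 874 and 978 CPM) and Hbb-bh1 (0 and 5.17 against 22.8 and 11.6 CPM) and the red cell factor Gata1 (0 and 0.839 against 2.71 and 3.17 CPM). In all 3, closed library 15 was the lowest of the 4. Their log2 fold changes were -3.15 (SE 1.52), -2.72 (SE 2.37) and -2.74 (SE 3.19), and DESeq2 gave Hba-x and Hbb-bh1 an adjusted p of 1.00 and Gata1 none. The list summed to 183 and 436 CPM in closed and 1056 and 1209 CPM in open tissue, against 245 to 364 CPM in normal dams.

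Genes of mesoderm mostly overlapped between the groups. Of 22 tested genes of paraxial mesoderm and somites, 1 had both closed libraries higher (4.55%, background 20.1%) and 2 both open ones (9.09%, background 13.7%). Pdgfra, a receptor of mesenchyme, was at 149 and 159 CPM in closed and 466 and 65 CPM in open tissue, and Aldh1a2, the somite enzyme that makes retinoic acid, at 266 and 115 CPM against 243 and 0.587 CPM. Twist1, a factor of mesenchyme, was higher in both open libraries, at 72.2 and 102 CPM against 310.0 and 111 CPM. The heart and gut factor Gata4 was at 4.44 and 0.559 CPM in closed and 86 and 0 CPM in open tissue, and Gata6 at 3.63 and 1.68 CPM against 54.3 and 0 CPM. Summed levels of lateral, cardiac and intermediate mesoderm were 17 and 25.2 CPM in closed tissue, 285 CPM in open library 13 and 0 in open library 14. Those of paraxial mesoderm were 1316 and 959.5 CPM in closed and 2205 and 411 CPM in open tissue. Of 14 tested genes of gut and yolk sac endoderm, 5 had both open libraries higher (35.7%, background 13.7%) and 3 both closed ones (21.4%, background 20.1%). Afp, a yolk sac protein, was at 3.43 and 1.96 CPM against 10.2 and 10.8 CPM. The part of these other tissues in the differences between open and closed libraries was not tested.

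**Figure D4:**
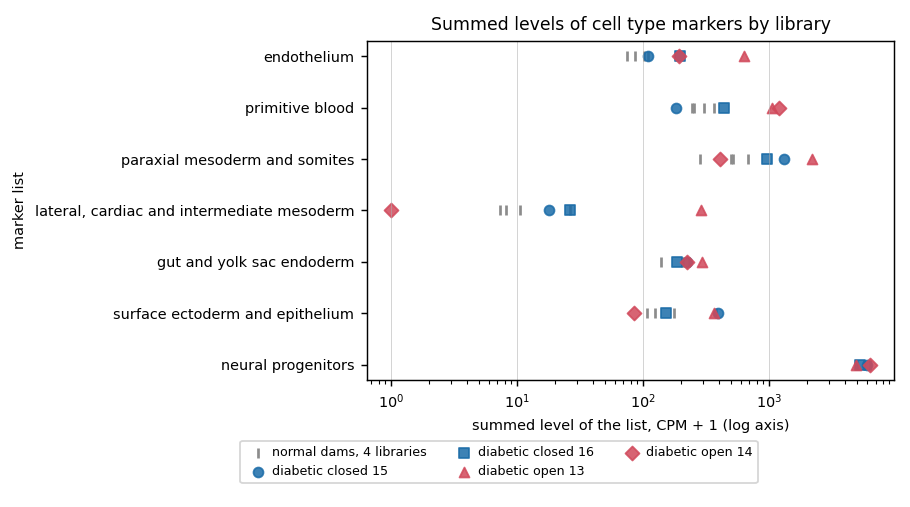
Summed level (CPM + 1, log axis) of 7 marker lists in each diabetic library, with grey ticks for the 4 libraries of normal dams. Blood markers are highest in both open libraries; lateral and cardiac mesoderm is high in open library 13 and at 0 in open library 14, and neural progenitor sums are even.

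Genes whose mouse mutants have closure defects had 22 of 83 tested members higher in both closed libraries and 13 higher in both open ones, shares of 26.5% and 15.7% against 20.1% and 13.7% of all genes. Their median log2 fold change was 0.09, against 0.03. Among those with the widest gap were Folr1, a folate receptor (4.04 and 3.5 CPM in closed, none in open tissue, at least 32-fold), and Bmp2, a dorsal signal (12.9 and 2.24 against 0.0588 and 0 CPM). Fuz, a cilium assembly factor, was at 2.42 and 0.559 CPM against 0 and 0 (at least 12.7-fold). Of 25 tested genes of planar cell polarity, the system that drives lengthening of the neural plate, 3 had each order (12% each, backgrounds 20.1% and 13.7%). Celsr2, an atypical cadherin, was at 22.4 and 38.2 CPM in closed and 0.0588 and 3.05 CPM in open tissue (4.35 as log2 fold change, SE 1.31), with 13.8 to 50.6 CPM in normal dams. Prickle3 was at 3.23 and 1.96 CPM against 0 and 0 (at least 22-fold). It had no count in normal dams, so that it passed the filter only through the diabetic closed libraries, where it was high. Vangl2, the core member mutated in the Loop-tail mouse, overlapped, at 13.7 and 8.95 CPM in closed and 9.53 and 7.64 CPM in open tissue. Of 37 tested genes of actin and apical constriction, 6 were higher in both closed libraries (16.2%, background 20.1%) and 8 in both open ones (21.6%, background 13.7%).

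Signalling lists had medians between -0.22 and 0.56 on the log2 scale. Of 36 tested Wnt genes, 6 were higher in both closed libraries (16.7%, background 20.1%) and 4 in both open ones (11.1%, background 13.7%). The receptor gene Tnfrsf19 stood at 64.8 and 74.7 CPM against 25.2 and 13.3 CPM. Of 24 genes of the BMP and TGF beta pathways, 5 and 6 had these orders (20.8% and 25%). The ligand Tgfb1 was at 2.22 and 1.68 CPM in closed and 8.59 and 6.7 CPM in open tissue. For FGF and retinoic acid the counts were 6 and 2 of 25 (24% and 8%), with Crabp2 at 6.05 and 12.6 CPM against 0 and 0 (at least 79.2-fold higher in closed). Normal open libraries had 6.74 and 0 CPM of Crabp2. For Notch the counts were 6 and 4 of 23 (26.1% and 17.4%), with Hes6 at 5.45 and 2.24 CPM against 1.06 and 0 CPM.

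Of 13 tested genes in the list of Pdcd6 and its partners in vesicle transport, 5, Pdcd6 among them, had both closed libraries higher (38.5%, background 20.1%). In 1 both open libraries were higher (7.69%, background 13.7%), and the median log2 fold change of the 13 genes was 0.27. Of these, only Pdcd6 had a gap of at least 2 times.

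Lists of metabolism and stress had medians between -0.08 and 0.23 on the log2 scale. Glycolysis and glucose transport had 9 of 28 tested members higher in both closed libraries (32.1%, background 20.1%) and 2 in both open ones (7.14%, background 13.7%). The median log2 fold change was 0.08. Ldhb, a lactate dehydrogenase subunit, was at 4.64 and 4.06 CPM in closed tissue, with no count in open tissue (at least 37-fold), the same order as in normal dams (10.9 and 11.1 against 0 and 0 CPM). Ldha, the other subunit and one of the 10 most abundant genes, was at 11209.8 and 15448 CPM in closed and 5964 and 13659.7 CPM in open tissue, with library 13 again the lowest. Of 58 tested genes of oxidative phosphorylation, 11 were higher in both closed libraries (18.97%, background 20.1%) and 6 in both open ones (10.34%, background 13.7%). Both shares were below background. Cyc1, a subunit of complex III, stood out at 553 and 404 CPM against 30.2 and 186 CPM (log2 fold change 2.15, SE 0.65), and Ndufa3, of complex I, was at 83.3 and 73 CPM against 22 and 34.4 CPM. In normal dams Cyc1 lay between 359 and 473 CPM and Ndufa3 between 68.8 and 111 CPM, all above the diabetic open libraries.

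Ribosomal protein genes share sequence with many pseudogenes and are uncertain for that reason. Of their 45 tested members, 13 were higher in both closed libraries (28.9%, background 20.1%) and 3 in both open ones (6.67%, background 13.7%). Rpl27a was at 146 and 186 CPM against 63.7 and 69.9 CPM. Of 23 genes of endoplasmic reticulum stress, 7 had both open libraries higher (30.4%, background 13.7%) and 2 both closed ones (8.70%, background 20.1%). The median log2 fold change was -0.08. The chaperone genes Hspa5 (1013 and 926 against 1509.9 and 1030.0 CPM) and Hsp90b1 (1664 and 2122 against 2103 and 1998 CPM) differed by less than 1 on the log2 scale. Antioxidant defence had 5 of 27 higher in both closed libraries (18.5%) and 3 in both open ones (11.1%). Gclm, of glutathione synthesis, was at 4.84 and 8.81 CPM against 1.41 and 0.117 CPM. For the hypoxia response the counts were 5 and 3 of 21 (23.8% and 14.3%), with Vhl at 15.7 and 7.83 CPM against 3.88 and 0 CPM. Folate and one-carbon metabolism had 10 and 5 of 30 (33.3% and 16.7%), with the folate transporter gene Slc46a1 at 1.21 and 2.52 CPM against 0 and 0 (at least 15.8-fold). In normal dams Slc46a1 had the opposite order, at 0 and 0 CPM in closed and 1.11 and 13.2 CPM in open tissue. The p53 and apoptosis list had 5 and 3 of 31 (16.1% and 9.68%), with Cycs, cytochrome c, at 1771 and 1462 CPM against 1458 and 1118 CPM. The cell cycle list had 10 and 4 of 41 (24.4% and 9.76%).

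The last comparison asked whether closed and open tissue differed in another way in diabetic than in normal dams. The difference of the log2 fold changes was tested as an interaction, and 0 of 11779 genes passed (0% of genes tested; smallest adjusted p = 1.00 by edgeR's quasi-likelihood F test). An unadjusted p below 0.05 was found for 440 genes, and DESeq2 called 22. Differences between the dams are therefore given as values. Of the 2368 genes with both closed libraries higher in diabetic dams, 419 had the same order in normal dams and 259 the opposite one. Of the 1618 with both open libraries higher, 225 and 247 did. The share of all genes with each order in normal dams was not set beside these counts. They are therefore not read as likeness or unlikeness of the dams.

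Among the smallest interaction p were Pdcd6, Slit1 and Foxj1, already described, on the positive side and Piwil2 on the negative. The interaction was 5.11 on the log2 scale (SE 0.95) for Pdcd6 and -5.19 (SE 1.08) for Piwil2. Cst3, the protease inhibitor cystatin C, was at 18.4 and 28 CPM in closed and 2.88 and 1.88 CPM in open tissue of diabetic dams and at 13.4 and 34.2 CPM and 42.6 and 69.1 CPM in normal dams. Arl5c had no count in diabetic open and in normal closed tissue, with 3.03 and 2.94 CPM in diabetic closed and 6.84 and 33.1 CPM in normal open tissue. On the negative side, Mapk7, the kinase ERK5, was at 9.49 and 15.7 CPM in closed and 16.1 and 19.5 CPM in open tissue of diabetic dams, without overlap, and near 0 in normal open tissue (0.101 and 0.17 CPM, against 19.4 and 13.8 CPM in closed). Slc35a3, Dag1 and Shisa4 likewise had no count in normal open tissue, and diabetic open libraries had 12 and 39.5 CPM, 19.3 and 6.58 CPM and 7.18 and 2.94 CPM. In these 4 genes the normal open libraries, and not the diabetic ones, stood apart. Normal open libraries 09 and 10 had no count in 10.8% and 20.2% of the genes tested.

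Each group was also set against the 6 libraries of the other 3 groups. Both diabetic open libraries lay below all 6 others by at least 2 times in 113 genes (0.959% of those tested) and above them in 79 (0.671%). For diabetic closed tissue the counts were 5 and 44, for normal closed 32 and 39, and for normal open 145 and 23. Of the 4 groups, the open ones had the most genes below all others in both kinds of dam. Open libraries 14 and 10 also had the most tested genes at 0 of all libraries (18.4% and 20.2%). The part of missing tags in these counts was not tested. Among the abundant genes that were low in diabetic open tissue were Pdcd6, Ghitm, Prpf39, a splicing factor (189 and 195 CPM in closed against 84 and 68.8 CPM in open tissue, 177 to 353 CPM in normal dams), and Psmb7, a proteasome subunit (166 and 143 against 57.8 and 63.8 CPM, 129.9 to 245 CPM in normal dams). E2f2, of the cell cycle, was at 30.5 and 30.1 CPM in closed and 0 and 3.05 CPM in open tissue, with 29 to 47.4 CPM in normal dams. Prpf39, Psmb7, E2f2, Twist1, Krt18, Cdh1, Gli1, Hes5, Tubb3, Egfl7, Crabp1, Igf2, H19, Mest, Mirg, Peg3 and Pax7 were chosen after their values had been seen.

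**Figure D5:**
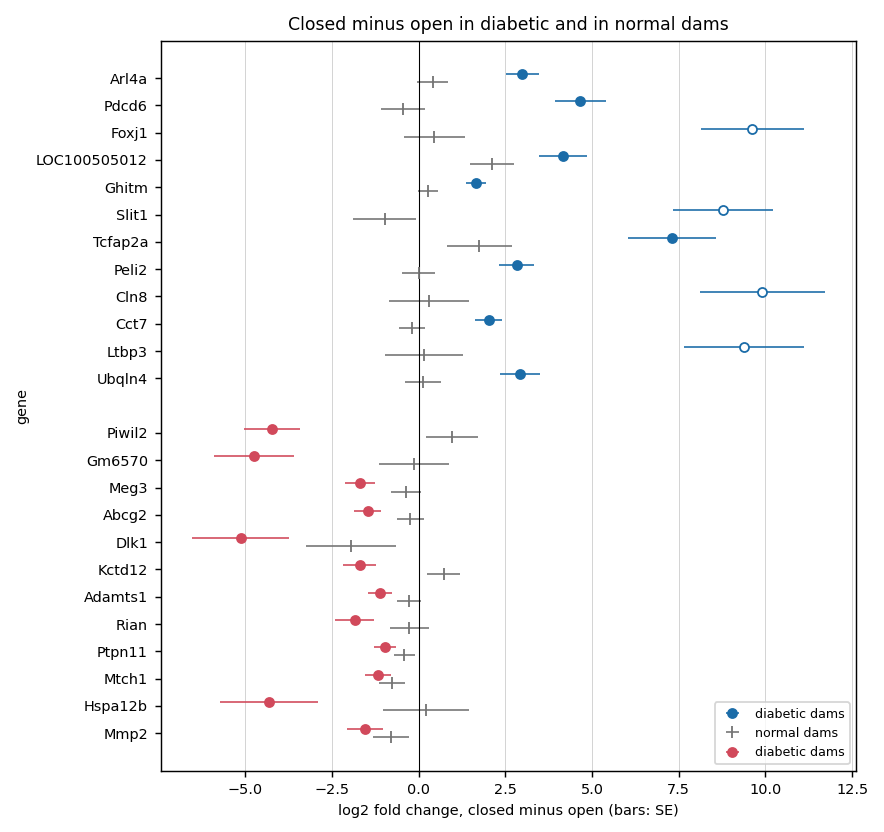
Log2 fold change, closed minus open, with its standard error in diabetic dams (coloured; open circles have no count in open tissue) and in normal dams (grey) for the 12 genes of each direction with the smallest p in diabetic dams and a mean of at least 10 counts. The genes were chosen by the diabetic values; among them, LOC100505012, Tcfap2a and Dlk1 have the normal dams' values farthest from 0 in the same direction.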

How the data were processed

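Tag counts per gene symbol were deposited by the authors in 1 file per library, unnormalized. Per the submitters' processing notes, mm9 was the build. No aligner or counter is named, and neither strand use nor the handling of tags shared by genes is stated, so genes with near-identical copies and overlapping or antisense genes are uncertain. Each file lists 26608 genes, of which 15162 had a count.

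The analysis used edgeR 4.0.16 in R 4.3.3 (filterByExpr with minimum count 10 and minimum total 15, TMM scaling, quasi-likelihood F test at default settings). A gene could pass the filter by its counts in a single group, as Prickle3 and Dcn did, and such genes are part of the counts without overlap. A model of the 4 groups over all 8 libraries has 4 residual degrees of freedom. The threshold was a Benjamini-Hochberg adjusted p of 0.05. DESeq2 1.42.0, limma-voom (limma 3.58.1), other scalings and filters, and leaving out each library were alternatives. Levels are CPM on TMM-scaled library sizes. Bounds for groups at 0 use 3 counts over the group. On simulated data the fit recovered the fold sizes, but the share of false calls among its calls was above the nominal level. No replicate number occurs in 2 groups, so no pairing was fitted.

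The comparison, the 36 gene lists and the named genes were chosen with earlier results of these data known. The rule named, per direction, 12 genes by smallest p, up to 4 members per list with a gap of at least 2 times (otherwise the 2 most abundant), up to 6 genes with no count in a group, the 5 smallest interaction p, the 10 most abundant genes and a set of closure genes; those on which the results turn are printed. Tags came from GENCODE M21 transcripts (GRCm38).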

Additional observations from a re-analysis of the deposited data

How the results depend on the processing

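The count of 0 genes past the threshold in diabetic dams became 41 with no filter on low counts, 1 (Pdcd6) with edgeR's newer quasi-likelihood option (legacy=FALSE, an alternative added after the data were seen), 47 with DESeq2 and 1 with limma-voom, and it ranged from 0 to 5 when 1 library was left out, with 5 without open library 14. A group left with 1 library is then assumed to vary like the others. The planned legacy=TRUE setting is the default of this edgeR version and so gave the main values. For the interaction the count of 0 became 23 with no filter, 22 with DESeq2 and 1 with limma-voom, and ranged from 0 to 4 when 1 library was left out, again highest without open library 14. The 3986 genes without overlap became 934 with a gap of at least 2 times and 601 with one of at least 4 times, and between 6637 and 8844 with 1 diabetic library fewer, since a group of 1 library overlaps less by construction. No paired analysis was possible because no replicate number is shared between groups. Of 109 genes, 90 kept their direction in each of the 19 settings in which they had a value, and 25 of 2056 values reversed. Grhl3 had a log2 fold change of -0.0305 with DESeq2's size factors, -0.0216 with library totals, -0.00495 with a stricter filter and -0.0281 with DESeq2. With 1 library left out, the lowest and highest values of the genes that reversed were -0.64 and 0.15 for Hoxa2, -6.21 and 7.12 for Gata4, -4.35 and 7.21 for Gata6, -0.35 and 8.30 for Aldh1a2, -1.60 and 1.24 for Pdgfra, -0.41 and 0.35 for Grhl3, -0.51 and 3.18 for Cdx2, -0.30 and 0.0601 for Hsp90b1, -2.79 and 1.48 for Crabp1, -0.45 and 2.89 for Fgf15, -0.0354 and 1.16 for Ldha, -2.63 and 0.62 for Igf2, -1.76 and 0.79 for H19, -1.76 and 0.0390 for Mest, -3.00 and 0.57 for Krt18, -0.0148 and 3.50 for Hes5, -1.28 and 0.27 for Dag1, -4.16 and 5.78 for Peg3 and -0.29 and 6.71 for Tubb3. The cause was not tested.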
